A study of Mus musculus with 6 samples.

Results

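The genes described here drive or restrain entry into the cell cycle: the D cyclins Ccnd1, Ccnd2 and Ccnd3, their kinases Cdk4 and Cdk6, the INK4 inhibitors Cdkn2a, Cdkn2b and Cdkn2c, and the Cip/Kip inhibitors Cdkn1a and Cdkn1b. They were chosen by name, with earlier results of these data known, and all 10 were found among the 17312 genes measured. The tumors came from the legs of mice with an allele of a synovial sarcoma fusion gene that Cre recombinase switches on, 3 with SS18-SSX2 and 3 with SS18-SSX1, which served as the comparison. TATCre, a Cre protein that enters cells, had been injected in front of the shin in every case, and tumors were taken about 1 year later with no other treatment. Because the injected Cre can act in any cell it reaches, the cell of origin is not fixed by the model, and no normal tissue was part of the comparison.

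D-type cyclins are made when growth signals arrive; they bind and activate Cdk4 and Cdk6, which phosphorylate the retinoblastoma protein Rb and release the E2F factors that turn on genes for DNA replication. INK4 proteins bind Cdk4 and Cdk6 and keep the cyclin out, while the Cip/Kip proteins p21 (Cdkn1a) and p27 (Cdkn1b) bind cyclin and kinase together and block Cdk2. In human synovial sarcoma, cyclin D1 and loss of CDKN2A have been studied as features of some tumors, and inhibitors of CDK4 and CDK6 are used in other cancers.

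Levels are in FPKM, the deposited unit, which divides the fragments of a gene by its transcript length and by the depth of the library. Between 7285853 and 17546227 reads lay behind a tumor, with SS18-SSX2 tumor 2 the shallowest. The FPKM of all genes summed to 259460, 442195 and 319577 in SS18-SSX2 tumors 1, 2 and 3. In SS18-SSX1 tumors 1, 2 and 3 the sums were 275819, 404854 and 382721. Scaling every tumor to the same sum, the TPM scale, can therefore change the order of tumors with close levels. Markers of synovial sarcoma were present in all 6 tumors: 12 to 14 of 14 listed genes reached 1 FPKM in the SS18-SSX2 tumors and 13 or 14 in the SS18-SSX1 tumors, and Tle1, a corepressor used in its diagnosis, had 34.1 ± 3.81 FPKM in SS18-SSX2 and 24.4 ± 1.20 FPKM in SS18-SSX1 tumors (SD, n = 3 each). Tumor 2 of each genotype held much skeletal muscle RNA. The summed level of 22 muscle genes was 5264 FPKM in SS18-SSX2 tumor 2 and 122 and 152 FPKM in the other SS18-SSX2 tumors, against 12411 FPKM in SS18-SSX1 tumor 2 and 316 and 494 FPKM in the other SS18-SSX1 tumors. At most 1 muscle gene per tumor was at 0 (Myl2 or Myl3 in SS18-SSX2 tumors, Myl3 or Myh7 in SS18-SSX1 tumors). B and plasma cell genes summed to 745 FPKM in SS18-SSX2 tumor 2, mostly Igkc, and to at most 80.2 FPKM elsewhere, and macrophage genes to 166 to 714 FPKM in SS18-SSX2 and 55.6 to 433 FPKM in SS18-SSX1 tumors. The 8 listed mast cell genes summed to 2529 FPKM in SS18-SSX1 tumor 3 and to at most 105 FPKM elsewhere. The Y-linked gene Ddx3y was at 0 to 0.0148 FPKM in the SS18-SSX2 tumors and at 28.2 to 35.2 FPKM in the SS18-SSX1 tumors, while Xist, made from the inactive X, was at 56.3 to 175 FPKM in the SS18-SSX2 tumors and 3.58 to 7.03 FPKM in the SS18-SSX1 tumors. These sex-linked genes split exactly by genotype, so in every comparison below the fusion and the sex-linked difference cannot be told apart.

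Ccnd2 was by far the most abundant of the 10 genes. Averaged over the 6 tumors, the order of levels was Ccnd2 (491 ± 295 FPKM), Ccnd1 (121 ± 25.4), Cdk4 (94.5 ± 28.1), Cdkn1b (30.3 ± 7.36), Cdkn2a (18.6 ± 16.05), Cdkn2c (16.6 ± 7.94), Cdkn1a (14.3 ± 8.26), Ccnd3 (11.5 ± 2.36), Cdkn2b (6.29 ± 4.17) and Cdk6 (5.97 ± 3.59; all FPKM, SD, n = 6). The ranges over tumors were separate at only 2 steps in this order, between Ccnd2 and Ccnd1 and between Cdk4 and Cdkn1b. Ccnd1 exceeded Cdk4 in 6 of 6 tumors although their ranges overlapped, and none of the steps below Cdkn1b held in all 6 tumors.

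**Figure D1:**
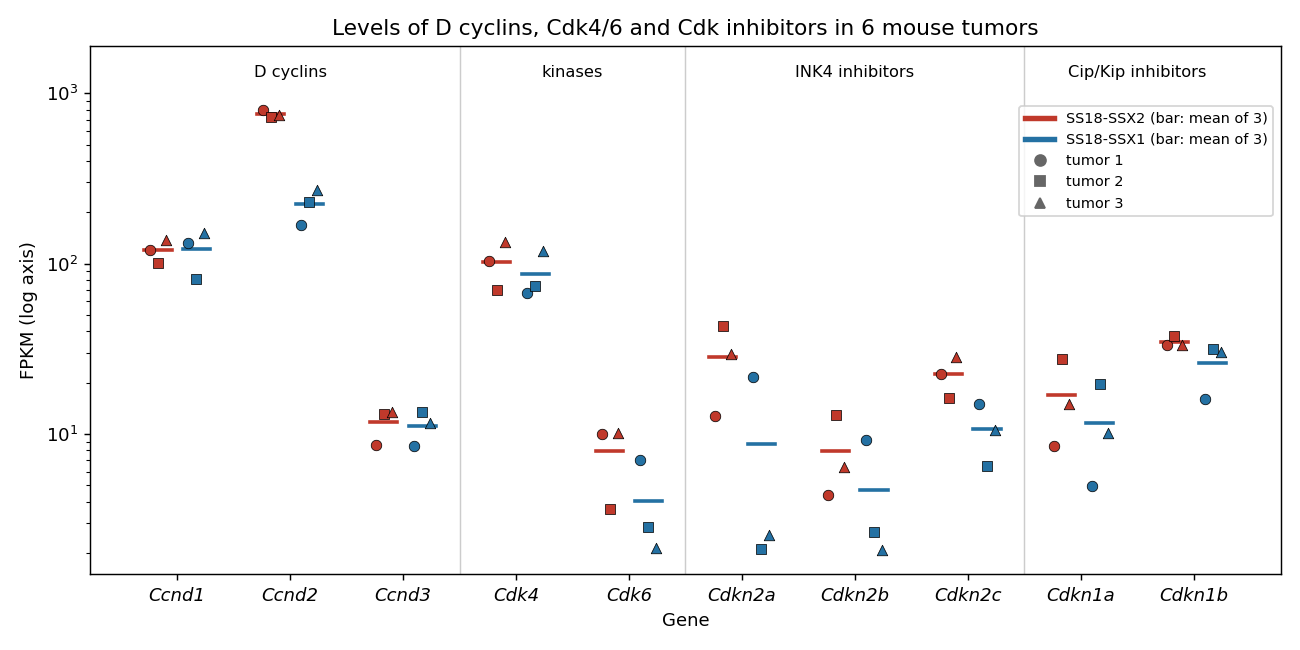
FPKM (log axis) of the 10 genes in each tumor, SS18-SSX2 in red left of SS18-SSX1 in blue, with a bar at the mean of 3 tumors and a marker shape for the tumor number. Ccnd2 lies above all other genes, at 725 to 800 FPKM in SS18-SSX2 tumors and 169 to 271 FPKM in SS18-SSX1 tumors, and Cdkn2a has the widest spread.

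None of the 10 genes passed the test between genotypes, which was limma on log2(FPKM + 1) with Benjamini-Hochberg adjustment over 13873 genes at a threshold of 0.05. Over all genes tested the same rule called 9 genes (0.0649%), 6 of them higher in SS18-SSX2 tumors (0.0432%). All 10 genes passed the filter on low values, and all 10 had a positive log2 fold change (SS18-SSX2 minus SS18-SSX1), as had 51.1% of all genes; those of Ccnd1 and Ccnd3 were near 0 and turned negative in some fits with a tumor left out, and that of Ccnd1 also with a muscle covariate. Their median log2 fold change was 0.65, beside 0.01 over all genes. Because the 10 genes were chosen with earlier results of these data known, this contrast is a description only. Ccnd2, Cdkn2c and Cdkn2a had an unadjusted p under 0.05, a mark reached by 4.97% of all genes, 3.26% with the higher and 1.71% with the lower mean in SS18-SSX2 tumors. In FPKM the 2 genotypes did not overlap for Ccnd2, Cdkn1b and Cdkn2c, the last of which overlapped on the TPM scale. In FPKM 8.72% of all genes did not overlap, 4.97% with the higher and 3.76% with the lower values in SS18-SSX2 tumors. Without tumor 2 of both genotypes 4 genes did not overlap in FPKM, Cdk6 joining Ccnd2, Cdkn1b and Cdkn2c. There 35.4% of all genes did not overlap, 16.3% being higher in SS18-SSX2 tumors.

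**Figure D2:**
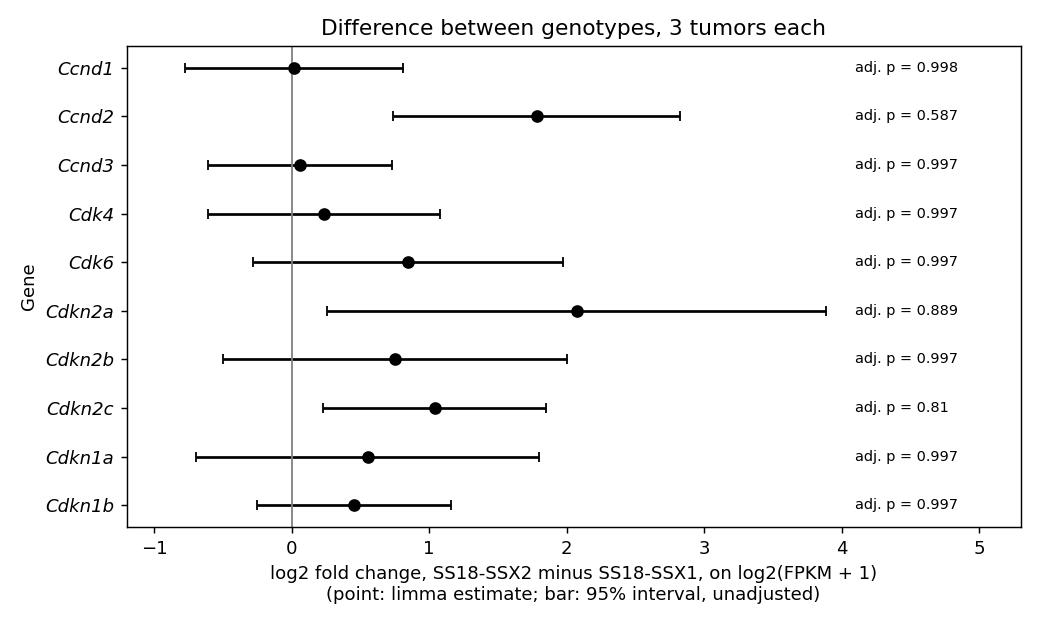
Log2 fold change of each gene, SS18-SSX2 minus SS18-SSX1, on log2(FPKM + 1), with its unadjusted 95% interval and the limma p adjusted over 13873 genes. The intervals of Ccnd2 (0.74 to 2.83), Cdkn2a (0.26 to 3.89) and Cdkn2c (0.23 to 1.85) lie above 0, and no adjusted p is below 0.587.

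Among the D cyclins, the groups did not overlap for Ccnd2, while Ccnd1 and Ccnd3 overlapped and had nearly equal means. Ccnd2 (chr6:127125162-127152193, minus strand, GRCm38) encodes cyclin D2, which stem and progenitor cells of several tissues use. Its level was 800, 725 and 749 FPKM in SS18-SSX2 tumors 1, 2 and 3, against 169, 231 and 271 FPKM in SS18-SSX1 tumors 1, 2 and 3. Every SS18-SSX2 tumor thus lay well above every SS18-SSX1 tumor, and each was among the 32 most abundant of 17312 genes, while in the SS18-SSX1 tumors Ccnd2 ranked between 89 and 123. The means were 758 ± 37.9 FPKM in SS18-SSX2 and 224 ± 51.4 FPKM in SS18-SSX1 tumors (SD, n = 3 each), a ratio of 3.39. The log2 fold change was 1.78 (SE 0.45, 95% interval 0.74 to 2.83), with an unadjusted p of 0.00444 that ranked 105 of 13873 and a limma adjusted p of 0.587. The fold change stayed between 1.59 and 1.93 under the 18 alternative settings, with an unadjusted p under 0.05 in 18 of them and an adjusted p between 0.186 and 0.99997. It was 1.85 without tumor 2 of both genotypes and 1.79 with the muscle genes as a covariate. Pericyte and smooth muscle genes, summed over a list of 10, came to 180 to 266 FPKM in SS18-SSX2 tumors and 108 to 300 FPKM in SS18-SSX1 tumors, and 9 of the 10 had a positive log2 fold change (median 0.44). Among them Acta2, the actin of smooth muscle, was called, with 23.6 ± 4.37 FPKM in SS18-SSX2 and 4.09 ± 0.874 FPKM in SS18-SSX1 tumors (limma adjusted p = 0.0474), and Tagln had 12.9 ± 6.19 FPKM in SS18-SSX2 and 3.90 ± 1.87 FPKM in SS18-SSX1 tumors (limma adjusted p = 0.639), both without overlap. Their part in the Ccnd2 values was not tested. In bulk tumors, a larger share of cells that make a transcript and more of it per cell cannot be told apart. No source used here says whether counting used the strand, and 6.31% of the 50-base windows of Ccnd2 lay in transcripts of the opposite strand. Of these 596 windows, 325 were shared with Gm43126, whose level is not given here, and 271 with 9330179D12Rik. The latter had 0.834 to 1.66 FPKM in SS18-SSX2 tumors and 0.303 to 1.76 FPKM in SS18-SSX1 tumors.

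Ccnd1 (chr7:144929931-144939925, minus strand) encodes cyclin D1, a target of Wnt and mitogen signals. It had 121, 102 and 138 FPKM in SS18-SSX2 tumors 1, 2 and 3, against 133, 81.6 and 151 FPKM in SS18-SSX1 tumors 1, 2 and 3. The groups overlapped fully, and tumor 2, rich in muscle RNA, was lowest in both genotypes. The difference was 0.02 on the log2 scale (SE 0.34, 95% interval -0.78 to 0.81, limma adjusted p = 0.998), an interval that still allows a change of 0.81 upward. Of its windows 21.6% were shared with the opposite-strand gene LTO1, itself at 3.28 to 4.15 FPKM in SS18-SSX2 tumors and 3.25 to 4.86 FPKM in SS18-SSX1 tumors.

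Ccnd3 (chr17:47505051-47599691, plus strand), the cyclin D3 gene, which is known for its part in lymphocytes and differentiating muscle, had 8.62, 13.1 and 13.5 FPKM in SS18-SSX2 tumors and 8.52, 13.5 and 11.6 FPKM in SS18-SSX1 tumors 1, 2 and 3. In FPKM tumor 1 was the lowest of each genotype, and the ranges overlapped. Tumor 1 also had the smallest summed FPKM of each genotype, and on the TPM scale it was the lowest in neither. The difference between genotypes was 0.06 on the log2 scale (SE 0.29, 95% interval -0.61 to 0.73, limma adjusted p = 0.997). Of the Ccnd3 windows 5.39% were shared with other genes, mostly with Bysl on the opposite strand. Bysl had 5.05 ± 1.25 FPKM in SS18-SSX2 and 5.62 ± 0.416 FPKM in SS18-SSX1 tumors, so a part of either value may belong to the other gene.

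Summed, the D cyclins came to 890 ± 45.6 FPKM in SS18-SSX2 tumors and 357 ± 66.8 FPKM in SS18-SSX1 tumors (SD, n = 3 each), with no overlap. Ccnd2 made up 83.2% to 86.3% of that sum in SS18-SSX2 tumors and 54.5% to 70.8% in SS18-SSX1 tumors. Ccnd1 made up 12.1% to 15.3% in SS18-SSX2 tumors and 25.0% to 42.8% in SS18-SSX1 tumors, and Ccnd3 at most 1.56% in SS18-SSX2 and 4.14% in SS18-SSX1 tumors. The ratio of Ccnd2 to Ccnd1 was 6.61, 7.14 and 5.43 in SS18-SSX2 tumors 1, 2 and 3, against 1.27, 2.83 and 1.80 in SS18-SSX1 tumors 1, 2 and 3. These sums and ratios follow mainly from Ccnd2 and carry no test of their own.

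**Figure D3:**
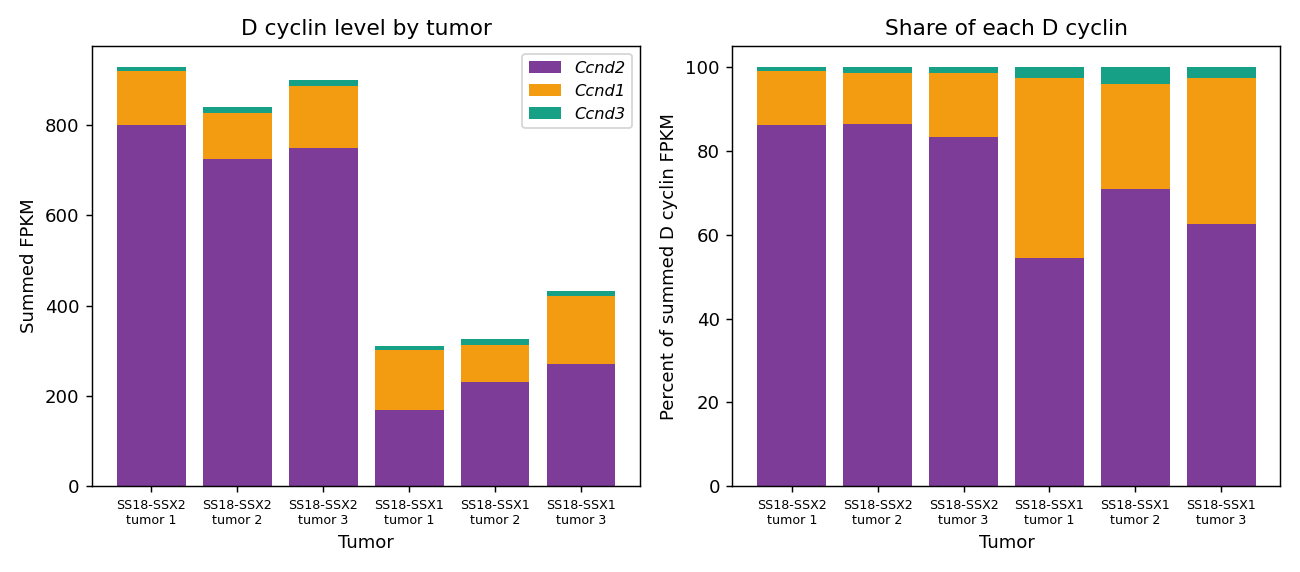
Summed FPKM of the D cyclins in each tumor (left) and the percent of that sum in each gene (right), SS18-SSX2 tumors before SS18-SSX1 tumors. The sum is 840 to 929 FPKM in SS18-SSX2 tumors and 310 to 433 FPKM in SS18-SSX1 tumors, and the Ccnd1 block has a similar height in both.

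Cdk4 was the main kinase in every tumor. Cdk4 (chr10:127063534-127067920, plus strand) had 103, 70.2 and 134 FPKM in SS18-SSX2 tumors 1, 2 and 3, against 67.1, 74.3 and 119 FPKM in SS18-SSX1 tumors 1, 2 and 3. Tumor 3 was the highest of each genotype and the groups overlapped. Its log2 fold change was 0.24 (SE 0.36, 95% interval -0.61 to 1.08, limma adjusted p = 0.997), and between 0.02 and 0.48 when any single tumor was left out. Tspan31 lies on the opposite strand against the end of Cdk4 and shares 17% of its windows; it had 68.7, 46.1 and 67.4 FPKM in SS18-SSX2 tumors and 49.6, 43.7 and 116 FPKM in SS18-SSX1 tumors 1, 2 and 3, so a part of either value may belong to the other gene. Tumor 3 was also the highest for Tspan31 among the SS18-SSX1 tumors.

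Cdk6 (chr5:3341485-3531008, plus strand) acts beside Cdk4 and is prominent in blood and progenitor cells. It had 10.04, 3.64 and 10.1 FPKM in SS18-SSX2 tumors 1, 2 and 3, against 7.08, 2.84 and 2.15 FPKM in SS18-SSX1 tumors 1, 2 and 3. SS18-SSX2 tumors 1 and 3 lay above all SS18-SSX1 tumors, and the muscle-rich SS18-SSX2 tumor 2 lay among the SS18-SSX1 values. The log2 fold change was 0.85 (SE 0.49, 95% interval -0.28 to 1.97, limma adjusted p = 0.997). It was 1.13 without tumor 2 of both genotypes, 0.65 with the muscle genes as a covariate, and between 0.57 and 1.26 when any single tumor was left out. Cdk4 took 91.1% to 95.1% of the summed level of both kinases in SS18-SSX2 tumors and 90.5% to 98.2% in SS18-SSX1 tumors.

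Cdkn2a varied more between individual tumors than any other of the 10 genes. The mouse Cdkn2a locus (chr4:89274471-89294653, minus strand) gives 2 proteins from separate starts, p16Ink4a, which inhibits Cdk4 and Cdk6, and p19Arf, which stabilizes p53 by binding Mdm2. Its neighbour Cdkn2b (chr4:89306299-89311039, minus strand) encodes the related inhibitor p15Ink4b. Gene-level values cannot separate the p16Ink4a from the p19Arf transcript. The windows around these starts, from 250 bases before to 50 after, are shown because the levels of Cdkn2a and Cdkn2b were high and low in the same tumors (RefSeq, GRCm38.p6, minus strand, 5′ to 3′). The windows lie at chr4:89294570-89294869, the upstream start of Cdkn2a, chr4:89282143-89282442, its downstream start, and chr4:89310983-89311282, the start of Cdkn2b. Capitals mark the motifs found on either strand.
Cdkn2a upstream start: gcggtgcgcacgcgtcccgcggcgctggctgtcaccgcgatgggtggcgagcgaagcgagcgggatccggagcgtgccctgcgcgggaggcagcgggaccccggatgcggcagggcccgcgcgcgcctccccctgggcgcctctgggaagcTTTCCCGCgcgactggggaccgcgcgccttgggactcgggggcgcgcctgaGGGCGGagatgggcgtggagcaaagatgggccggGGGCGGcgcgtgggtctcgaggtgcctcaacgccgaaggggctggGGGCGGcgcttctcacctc
Cdkn2a downstream start: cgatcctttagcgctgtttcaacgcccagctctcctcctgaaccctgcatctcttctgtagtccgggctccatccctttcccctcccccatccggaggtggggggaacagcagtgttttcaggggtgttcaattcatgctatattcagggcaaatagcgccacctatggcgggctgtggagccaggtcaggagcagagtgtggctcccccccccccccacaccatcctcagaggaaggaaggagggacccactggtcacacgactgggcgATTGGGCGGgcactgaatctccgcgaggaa
Cdkn2b start: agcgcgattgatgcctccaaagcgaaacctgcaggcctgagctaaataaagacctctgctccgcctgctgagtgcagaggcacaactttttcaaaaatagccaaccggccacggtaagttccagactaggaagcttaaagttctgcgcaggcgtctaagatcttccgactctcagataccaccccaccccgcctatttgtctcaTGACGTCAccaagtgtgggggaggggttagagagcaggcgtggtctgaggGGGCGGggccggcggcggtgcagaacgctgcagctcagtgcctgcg

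The 4 motifs searched on both strands were an E2F site (TTTCGCGC, TTTGGCGC, TTTCCCGC or TTTGCCGC), a CRE (TGACGTCA), a GC box (GGGCGG) and a CCAAT box (CCAAT). The upstream window of Cdkn2a held TTTCCCGC at -99 from the start site, a motif found in 2.28% of 32534 RefSeq windows of this length, and 3 GC boxes. Its downstream window held a CCAAT box at 21, read on the other strand, that overlapped a GC box at 24. The Cdkn2b window held a CRE at -46, a motif found in 1.8% of windows, and a GC box at 5. GC boxes were found in 35.9% and CCAAT boxes in 37.4% of all windows, and no motif was common to the 3 windows apart from the GC box. Of the 10 genes 8 had at least 1 window in the table.

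Cdkn2a had 12.8, 43.1 and 29.4 FPKM in SS18-SSX2 tumors 1, 2 and 3, against 21.6, 2.11 and 2.53 FPKM in SS18-SSX1 tumors 1, 2 and 3. SS18-SSX1 tumors 2 and 3 were low, and SS18-SSX1 tumor 1 lay inside the SS18-SSX2 range, so the groups overlapped. The highest tumor had 20.4 times the level of the lowest, which rested on 34 reads (95% exact Poisson interval 23.5 to 47.5 reads, or 1.46 to 2.95 FPKM, counting error only). The means were 28.4 ± 15.1 FPKM in SS18-SSX2 and 8.76 ± 11.2 FPKM in SS18-SSX1 tumors (SD, n = 3 each), and the log2 fold change was 2.07 (SE 0.78, 95% interval 0.26 to 3.89, unadjusted p = 0.0300, limma adjusted p = 0.889). An unadjusted p under 0.05 was kept in 12 of the 18 alternative settings. The fold change was 3.00 without SS18-SSX1 tumor 1 and 1.20 without tumor 2 of both genotypes, and neither passed after adjustment (limma adjusted p = 0.292 and 0.884). SS18-SSX2 tumor 2, with the highest Cdkn2a, was also the tumor with the most B and plasma cell and macrophage RNA and the shallowest library, and the part of these in its value was not tested.

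Cdkn2b had 4.40, 12.9 and 6.40 FPKM in SS18-SSX2 tumors 1, 2 and 3, against 9.27, 2.66 and 2.09 FPKM in SS18-SSX1 tumors 1, 2 and 3. In FPKM, SS18-SSX2 tumor 2 was the highest for both Cdkn2a and Cdkn2b, and SS18-SSX1 tumors 2 and 3 were the lowest for both. On the TPM scale the same tumors were the lowest. The highest tumor on that scale was SS18-SSX1 tumor 1 for Cdkn2b and still SS18-SSX2 tumor 2 for Cdkn2a. The log2 fold change of Cdkn2b was 0.75 (SE 0.54, 95% interval -0.50 to 2.01, limma adjusted p = 0.997). It was 0.17 without tumor 2 of both genotypes and between 0.37 and 1.29 when any single tumor was left out. The ratio of Cdkn2a to Cdkn2b was 2.92, 3.34 and 4.60 in SS18-SSX2 tumors and 2.33, 0.794 and 1.21 in SS18-SSX1 tumors 1, 2 and 3, without overlap and with no test. No 50-base window was shared between these genes; the longest run they had in common was 23 bases, cgggaaggcttcctggacacgct, and no source used here gives the read length. Mtap, a neighbour of Cdkn2a that is often lost with CDKN2A in human cancers, had 15.4 ± 3.31 FPKM in SS18-SSX2 and 12.5 ± 3.22 FPKM in SS18-SSX1 tumors (SD, n = 3 each) and varied 1.95-fold over the tumors.

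Cdkn2c (chr4:109660876-109667189, minus strand) encodes p18Ink4c, an INK4 protein of developing tissues that is itself an E2F target. It had 22.6, 16.4 and 28.3 FPKM in SS18-SSX2 tumors 1, 2 and 3, against 15.1, 6.46 and 10.5 FPKM in SS18-SSX1 tumors 1, 2 and 3. In FPKM the lowest SS18-SSX2 tumor, tumor 2, lay just above the highest SS18-SSX1 tumor, tumor 1. On the TPM scale their order was reversed and the groups overlapped. The means were 22.4 ± 5.98 FPKM in SS18-SSX2 and 10.7 ± 4.31 FPKM in SS18-SSX1 tumors (SD, n = 3 each), a ratio of 2.10, with a log2 fold change of 1.04 (SE 0.35, 95% interval 0.23 to 1.85, unadjusted p = 0.0186, limma adjusted p = 0.810). Under the 18 alternative settings the fold change stayed between 0.75 and 1.41, with an unadjusted p under 0.05 in 15 of them. On the TPM scale it was 1.16 (limma unadjusted p = 0.0531).

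The fourth INK4 gene, Cdkn2d, which encodes p19Ink4d, had 18.8, 28.1 and 32.4 FPKM in SS18-SSX2 tumors and 9.22, 15.9 and 15.9 FPKM in SS18-SSX1 tumors 1, 2 and 3. The Cdkn2d groups did not overlap (log2 fold change 0.91, limma adjusted p = 0.840). SS18-SSX1 tumor 1, the highest of its group for Cdkn2a, Cdkn2b and Cdkn2c, was the lowest for Cdkn2d. The sum of Cdkn2a, Cdkn2b and Cdkn2c was 58.8 ± 16.9 FPKM in SS18-SSX2 tumors and 24.1 ± 19.0 FPKM in SS18-SSX1 tumors (SD, n = 3 each), and the ranges overlapped. The ratio of summed D cyclins to that sum was 11.6 to 23.3 in SS18-SSX2 tumors and 6.75 to 29.0 in SS18-SSX1 tumors, where SS18-SSX1 tumor 1 was the lowest of all.

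**Figure D4:**
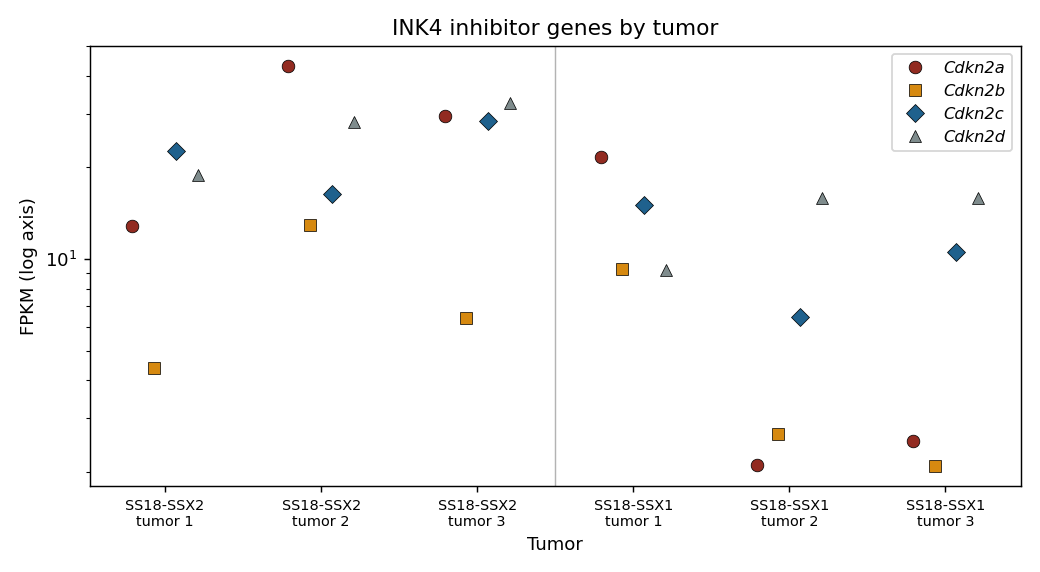
FPKM (log axis) of the INK4 genes in each tumor, SS18-SSX2 tumors left of SS18-SSX1 tumors. Cdkn2a (circles) and Cdkn2b (squares) are highest in SS18-SSX2 tumor 2, at 43.1 and 12.9 FPKM, and lowest in SS18-SSX1 tumors 2 and 3, while Cdkn2d (triangles) does not follow them.

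A list of 17 genes, mostly Polycomb subunits, was chosen as possible repressors of the Cdkn2a and Cdkn2b locus. Each gene was tested, and the list itself is only described. Of the 17 genes, 4 had a positive and 13 a negative log2 fold change, none was called, and the median was -0.15, beside 0.01 over all genes. Their part in the Cdkn2a and Cdkn2b levels was not tested. The smallest p belonged to Bmi1, the Polycomb protein first linked to this locus in mice, with 3.60, 3.11 and 1.75 FPKM in SS18-SSX2 tumors and 7.79, 9.21 and 11.8 FPKM in SS18-SSX1 tumors 1, 2 and 3. The Bmi1 groups did not overlap (log2 fold change -1.49, SE 0.31, unadjusted p = 0.00153, limma adjusted p = 0.413). Cbx8, a subunit of the same complex, averaged 4.64 ± 0.478 FPKM in SS18-SSX2 and 9.86 ± 2.48 FPKM in SS18-SSX1 tumors (log2 fold change -0.92, limma adjusted p = 0.737). The most abundant genes of the list, Cbx6 (87.0 ± 13.1 FPKM in SS18-SSX2 and 78.9 ± 19.1 FPKM in SS18-SSX1 tumors) and the T-box repressor Tbx2 (73.5 ± 16.8 FPKM in SS18-SSX2 and 82.9 ± 34.1 FPKM in SS18-SSX1 tumors), had close means.

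Of the Cip/Kip genes, Cdkn1b (chr6:134920401-134925513, plus strand), the gene of p27Kip1, had 33.2, 37.4 and 33.4 FPKM in SS18-SSX2 tumors 1, 2 and 3, against 16.1, 31.7 and 30.2 FPKM in SS18-SSX1 tumors 1, 2 and 3. The groups did not overlap, but SS18-SSX1 tumors 2 and 3 came close to the SS18-SSX2 values and tumor 1 stood well below. For Cdkn1b the log2 fold change was 0.46 (SE 0.30, 95% interval -0.25 to 1.16, limma adjusted p = 0.997), and 0.16 without SS18-SSX1 tumor 1. Cdkn1c, the imprinted gene of p57Kip2, was also lowest in SS18-SSX1 tumor 1. It had 39.4, 53.3 and 58.7 FPKM in SS18-SSX2 tumors and 20.2, 63.6 and 65.7 FPKM in SS18-SSX1 tumors 1, 2 and 3, with overlap. With Cdkn2d and the phosphatase gene Cdkn3, which overlapped at 9.66 ± 6.95 FPKM in SS18-SSX2 and 4.44 ± 4.21 FPKM in SS18-SSX1 tumors, all 3 other inhibitors had a positive log2 fold change (median 0.91) and none was called.

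Cdkn1a (chr17:29090976-29100727, plus strand) encodes p21Cip1, the best known target of p53. It had 8.54, 27.5 and 14.9 FPKM in SS18-SSX2 tumors 1, 2 and 3, against 4.97, 19.6 and 10.2 FPKM in SS18-SSX1 tumors 1, 2 and 3. Tumor 2 was the highest and tumor 1 the lowest of each genotype, and the groups overlapped. Tumor 2 was the one with 5264 FPKM of muscle genes in SS18-SSX2 and 12411 FPKM in SS18-SSX1. SS18-SSX2 tumor 2 also held the most macrophage and B and plasma cell RNA. The part of these cells in the Cdkn1a levels was not tested. The log2 fold change of Cdkn1a was 0.55 (SE 0.54, 95% interval -0.70 to 1.80, limma adjusted p = 0.997). It was 0.86 with the muscle genes as a covariate (limma adjusted p = 0.793), and 0.59 without tumor 2 of both genotypes. Single tumors moved it widely: it was 0.10 without SS18-SSX1 tumor 1, 0.15 without SS18-SSX2 tumor 2 and 1.00 without SS18-SSX1 tumor 2.

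Genes of the p53 circuit, into which p19Arf feeds and from which Cdkn1a is driven, were measured as a list of 20, of which 16 were tested. Of these, 11 had positive and 5 negative log2 fold changes, none was called, and the median was 0.05. Trp53 had 21.7 ± 6.56 FPKM in SS18-SSX2 and 17.1 ± 1.08 FPKM in SS18-SSX1 tumors, and Mdm2, its inhibitor and target, 19.1 ± 1.93 FPKM in SS18-SSX2 and 18.8 ± 5.97 FPKM in SS18-SSX1 tumors (SD, n = 3 each). Plk2, a p53-induced kinase, had the smallest p, with 40.8 ± 16.3 FPKM in SS18-SSX2 and 19.2 ± 7.10 FPKM in SS18-SSX1 tumors and no overlap (log2 fold change 1.04, limma adjusted p = 0.840). Bax, which triggers mitochondrial cell death, and Phlda3 were the most abundant of the list, with 64.9 ± 23.4 FPKM in SS18-SSX2 and 44.3 ± 8.83 FPKM in SS18-SSX1 tumors and with 51.7 ± 14.8 FPKM in SS18-SSX2 and 39.7 ± 8.19 FPKM in SS18-SSX1 tumors, and both overlapped.

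Among the other genes of the G1 machinery no gene was called. Of 13 genes of the Rb and E2F families, 8 had positive and 5 negative log2 fold changes, with a median of 0.20 and none called. Rb1, the main target of Cdk4 and Cdk6, had 6.26 ± 1.58 FPKM in SS18-SSX2 and 4.57 ± 0.784 FPKM in SS18-SSX1 tumors, and E2f1 had 8.44 ± 2.50 FPKM in SS18-SSX2 and 6.00 ± 3.48 FPKM in SS18-SSX1 tumors. The repressor E2Fs had the smallest p: E2f8 averaged 3.24 ± 1.46 FPKM in SS18-SSX2 and 1.32 ± 0.579 FPKM in SS18-SSX1 tumors and E2f7 2.49 ± 1.41 FPKM in SS18-SSX2 and 0.920 ± 0.291 FPKM in SS18-SSX1 tumors. Both overlapped and had an adjusted p of 0.997. Of 18 genes that E2F turns on for S phase, 14 had positive and 4 negative log2 fold changes (median 0.28, none called). That median was 0.05 with 11 positive genes without SS18-SSX1 tumor 2, 0.09 without SS18-SSX2 tumor 3, 0.11 without SS18-SSX2 tumor 1, 0.59 with 17 positive genes without SS18-SSX2 tumor 2, 0.66 with weights per tumor, and 0.09 with the muscle genes as a covariate. Rrm2, a subunit of ribonucleotide reductase, had 22.9 ± 7.81 FPKM in SS18-SSX2 and 14.3 ± 4.34 FPKM in SS18-SSX1 tumors. Of 12 tested other kinases, cyclins and phosphatases of the cycle, 7 had positive and 5 negative values (median 0.07, none called); the phosphatase Cdc25b had 12.7 ± 4.71 FPKM in SS18-SSX2 and 5.60 ± 1.48 FPKM in SS18-SSX1 tumors without overlap (limma adjusted p = 0.827), and Cdk2 overlapped at 32.1 ± 11.8 FPKM in SS18-SSX2 and 28.6 ± 7.70 FPKM in SS18-SSX1 tumors.

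Nor was any gene called among those that act on cyclin or Cdk levels. Of 20 regulators of D cyclin and inhibitor transcription, 13 had positive and 7 negative log2 fold changes (median 0.06, none called). Myc was low in all tumors, with 3.19 ± 1.08 FPKM in SS18-SSX2 and 2.95 ± 1.51 FPKM in SS18-SSX1 tumors, and Mycn overlapped at 8.72 ± 3.61 FPKM in SS18-SSX2 and 5.34 ± 3.32 FPKM in SS18-SSX1 tumors. The smallest p belonged to Mycl, with 2.78 ± 0.406 FPKM in SS18-SSX2 and 1.37 ± 0.734 FPKM in SS18-SSX1 tumors and no overlap, and to Klf4, which overlapped at 8.34 ± 1.23 FPKM in SS18-SSX2 and 14.1 ± 4.73 FPKM in SS18-SSX1 tumors (limma adjusted p = 0.997 for both). The most abundant was Id3, a target of BMP signals, with 256 ± 158 FPKM in SS18-SSX2 and 201 ± 127 FPKM in SS18-SSX1 tumors. Ctnnb1, which encodes beta-catenin, had 216 ± 32.3 FPKM in SS18-SSX2 and 193 ± 17.7 FPKM in SS18-SSX1 tumors. Of 14 tested genes for cyclin and inhibitor degradation, 7 were positive and 7 negative (median 0.03, none called). Fbxw7, the ubiquitin ligase subunit for cyclin E and Myc, had 5.53 ± 1.11 FPKM in SS18-SSX2 and 11.2 ± 3.33 FPKM in SS18-SSX1 tumors without overlap (log2 fold change -0.87, limma adjusted p = 0.840). Cul4b, a ubiquitin ligase scaffold, had 28.6 ± 8.12 FPKM in SS18-SSX2 and 18.3 ± 2.54 FPKM in SS18-SSX1 tumors without overlap (limma adjusted p = 0.997). Of 13 tested neighbours of the loci, 7 were positive and 6 negative (median 0.05, none called). Agap2, beside Cdk4, had 27.8 ± 9.88 FPKM in SS18-SSX2 and 12.4 ± 3.64 FPKM in SS18-SSX1 tumors without overlap (limma adjusted p = 0.810). The medians of the Rb and E2F, kinase, degradation, p53, regulator and neighbour lists changed sign under between 1 and 8 of the 18 alternatives.

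Markers of cell division had higher means in SS18-SSX2 tumors without passing the test. All 20 proliferation genes had a positive log2 fold change (median 1.04), as had 51.1% of all genes. Of the 20, 10 had an unadjusted limma p under 0.05, beside 4.97% of all genes, and none was called. The genotypes did not overlap for 4 of the 20, beside 8.72% of all genes. Mki67, the standard marker of cycling cells, had 78.9, 14.5 and 49.3 FPKM in SS18-SSX2 tumors and 23.3, 8.15 and 15.9 FPKM in SS18-SSX1 tumors 1, 2 and 3. Cdc20, which switches on the anaphase-promoting complex in mitosis, averaged 34.1 ± 13.5 FPKM in SS18-SSX2 and 11.9 ± 3.07 FPKM in SS18-SSX1 tumors, and Foxm1, a mitotic transcription factor, 14.8 ± 6.40 FPKM in SS18-SSX2 and 4.62 ± 0.542 FPKM in SS18-SSX1 tumors, both without overlap and with an adjusted p of 0.593. The mean log2(FPKM + 1) of the list was 4.45, 2.97 and 4.19 in SS18-SSX2 tumors and 2.83, 2.37 and 3.17 in SS18-SSX1 tumors 1, 2 and 3. In both genotypes tumor 2, rich in muscle RNA, had the lowest mean.

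Correlations of each gene with that mean over 6 tumors gave 10 comparisons, tested by all 720 pairings, two-sided, and none held after Benjamini-Hochberg adjustment. Cdkn2c had the highest Pearson coefficient, r = 0.85 (exact permutation p = 0.0389, adjusted 0.330) and Spearman rho = 0.77 (exact permutation p = 0.103, adjusted 0.514). Its r was 0.65 without SS18-SSX2 tumors 1 and 3, the tumors farthest from the median. Ccnd2 had the highest Spearman coefficient, rho = 0.89 (exact permutation p = 0.0333, adjusted 0.333), with r = 0.75 (exact permutation p = 0.124, adjusted 0.330) and r = 0.33 without those tumors. In FPKM the genotypes overlapped neither for Ccnd2 nor for Cdkn2c, so a pooled coefficient of either gene also holds the difference between genotypes. Cdk6 had r = 0.75 (exact permutation p = 0.106, adjusted 0.330), and -0.11 without those tumors. Both were SS18-SSX2 tumors and had the highest list means. The r without them thus covers a narrower range and mostly SS18-SSX1 tumors, which by itself can change it. Cdk4 had r = 0.72 (exact permutation p = 0.132, adjusted 0.330) and 0.56 without them. The remaining 6 genes had r between -0.26 and 0.51. The highest of these was Ccnd1, whose r was 0.83 without those tumors, the highest such value of the 10 genes. The others had between -0.25 and 0.29 without them. With 3 tumors per genotype no value within a genotype can be tested. The part of proliferation in the Cdkn2c and Ccnd2 levels was not tested.

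**Figure D5:**
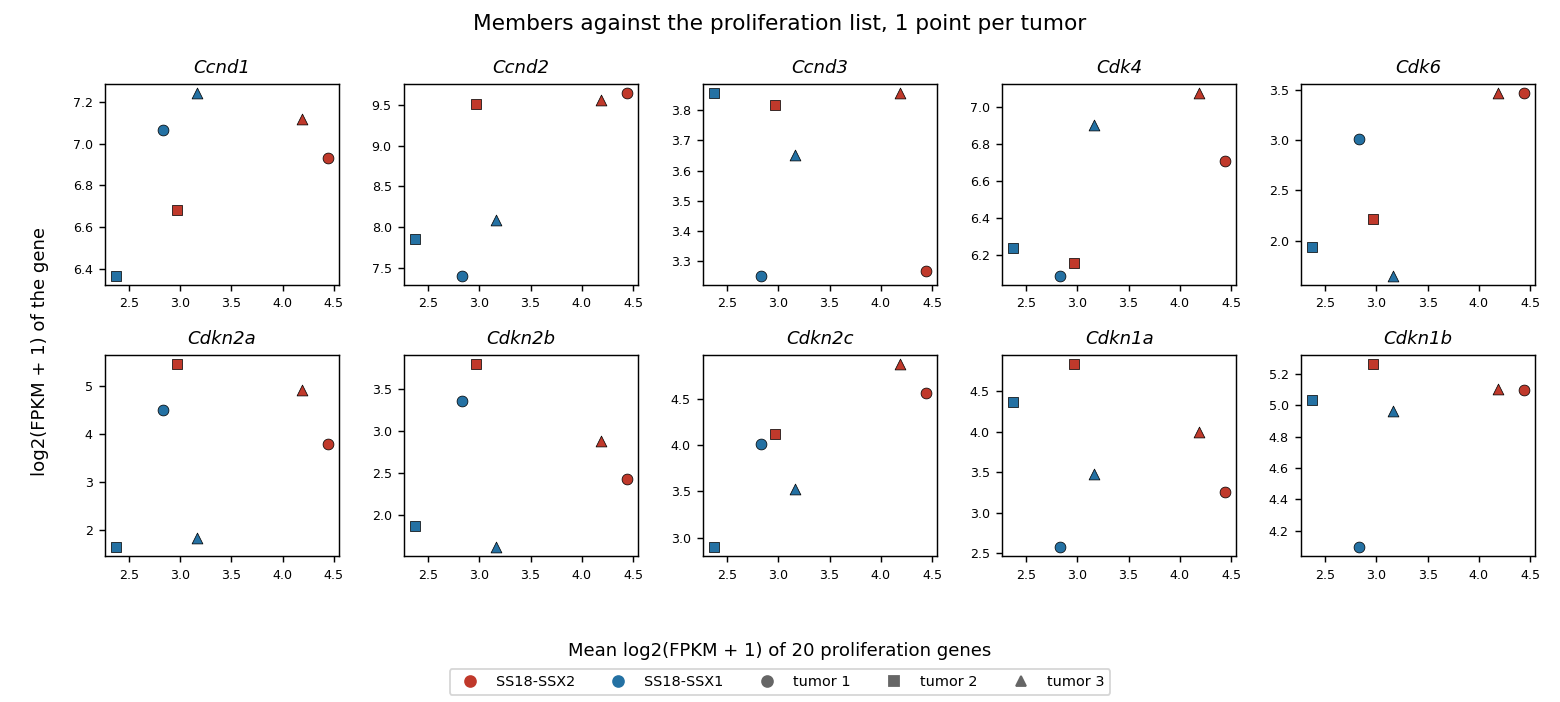
Log2(FPKM + 1) of each gene against the mean log2(FPKM + 1) of 20 proliferation genes, 1 point per tumor, SS18-SSX2 in red and SS18-SSX1 in blue. Cdkn2c has higher values in tumors with a higher list mean (r = 0.85, adjusted p = 0.330), while the Ccnd2 points form an upper SS18-SSX2 and a lower SS18-SSX1 level.

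For the 3 genes with the widest range over the tumors on the log2(FPKM + 1) scale, the tested genes with the most similar profile were sought by the root mean square difference of centred log2(FPKM + 1) over 6 tumors, among 13872 others. Those nearest to Ccnd2 were Adamtsl1 (difference 0.11), Sorl1 (0.20) and Pax6 (0.20). Adamtsl1 had 8.20, 6.35 and 7.29 FPKM in SS18-SSX2 tumors and 1.04, 1.32 and 1.65 FPKM in SS18-SSX1 tumors 1, 2 and 3. Pax6, a transcription factor of brain and eye, had 2.52, 2.09 and 1.97 FPKM in SS18-SSX2 tumors and 0.0412, 0.108 and 0.233 FPKM in SS18-SSX1 tumors 1, 2 and 3. Pax6 was under 1 FPKM in every SS18-SSX1 tumor, so it passed the filter only through the SS18-SSX2 tumors. Its lowest value rested on an estimated 6 reads. The 1 added to FPKM shrinks differences at such levels, so its nearness to Ccnd2 depends on this scale. Those nearest to Cdkn1a were Socs3 (0.17), Gm26722 (0.17) and Dbndd2 (0.19), and Socs3, a feedback inhibitor of cytokine signalling, had 22.2, 68.4 and 33.7 FPKM in SS18-SSX2 tumors and 9.74, 51.7 and 25.5 FPKM in SS18-SSX1 tumors 1, 2 and 3. Those nearest to Cdkn2a were the microRNA genes Mir540 (0.35), Mir665 (0.44) and Mir491 (0.46), whose values rest on at most 13 reads in any tumor.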

How the data were processed

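RNA of 6 mouse tumors was sequenced after Ribo-Zero depletion of ribosomal RNA, per the labels' protocols. The authors deposited 1 table of FPKM values with 1 column per tumor; Novoalign 2.08.03 and mm10 are given, without a role, per the submitters' processing notes. The counting tool, gene models, read length and strand handling were not given in the sources. Columns were matched to tumors by the samples' descriptions, and genotypes and tumor numbers came from the labels. Nothing says more of how the tumors of a genotype are related, so a p-value measures the spread among these tumors only. Identifiers were matched to GENCODE M21 symbols on GRCm38 (17029 of 17312 genes). Reads per tumor were worked out from the steps between low FPKM values, of which 77.6% to 79.8% came out whole within 0.02 reads, so read numbers and their Poisson intervals are estimates and cover counting error only.

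Genes with at least 1 FPKM in at least 3 tumors (13873) entered limma 3.58.1 (R 4.3.3, eBayes with a trend) on the log2(FPKM + 1) scale, SS18-SSX2 minus SS18-SSX1, two-sided, Benjamini-Hochberg adjusted over all of them, with a threshold of 0.05. Fold changes on this scale understate the change of low genes. The script was tested on simulated data. Correlations were tested over all pairings with Python 3.11.15 and scipy 1.17.1. Lists are described by counts and medians. The 10 genes and the lists were chosen with earlier results of these data known. Up to 4 genes per list could be named, the 2 with the smallest p and the 2 most abundant, and 10 set partners and neighbours such as Trp53, Myc and Mycn; the text does not give all of them. The genes Ddx3y, Xist, LTO1 and 9330179D12Rik were chosen after their values were seen. Alternatives were pseudocounts of 0.1 and 0.5, no filter, a minimum mean of 5 FPKM, quantile, upper quartile and TPM scaling, no trend, weights per tumor, a replicate block, a muscle covariate, and leaving out tumors.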

Additional observations from a re-analysis of the deposited data

How the results depend on the processing

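None of the 10 genes was called under any of the 18 alternatives, and 173 of 180 fits of a gene under an alternative kept the direction of the main fit. Ccnd1 and Ccnd3, whose differences were near 0, account for the other 7. The log2 fold change of Ccnd1 was -0.12 with the muscle covariate, -0.13 without tumor 2 of both genotypes, and between -0.24 and 0.19 when any tumor was left out; that of Ccnd3 was between -0.11 and 0.25 when any tumor was left out. The number of genes called over all tested genes, 9, was 5 with a pseudocount of 0.1, 16 with weights per tumor, 20 without tumor 2 of both genotypes, and 3 to 11 when any tumor was left out, with 3 reached without SS18-SSX2 tumor 3. The number of these 10 genes with an unadjusted p under 0.05 was 3, and was 1 without either SS18-SSX2 tumor 3 or SS18-SSX1 tumor 2, and was 5 without SS18-SSX1 tumor 1. The correlation with the proliferation list was -0.045 for Cdkn2b after quantile normalization and 0.53 for Ccnd3 on the TPM scale, both of opposite sign to the main value. Others kept their sign but moved. On the TPM scale r rose from 0.31 to 0.75 for Cdkn1b and from 0.51 to 0.76 for Ccnd1. After quantile normalization r rose from 0.72 to 0.91 for Cdk4. No adjusted exact permutation p was below 0.102 under the 5 alternatives used for correlations. The causes were not tested. The counts of genes without overlap after leaving out tumor 2 of both genotypes were added after seeing the data.

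The tumor numbers of the labels were used as a replicate block in 1 fit, which called 4 genes and none of the 10. The deviations of same-numbered tumors from their genotype means correlated at 0.38, 0.31 and -0.28 for numbers 1, 2 and 3. Tumors 1 and 2 correlated best with their own number, and tumor 3 did not. In both genotypes the deposited column name begins with N for tumor 1, A for tumor 2 and B for tumor 3. No source used here says what these letters mean. With so few tumors per genotype, the correlations cannot settle whether the numbers or letters pair the tumors.

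Depth limited Cdkn2a and Cdkn2b most, with 34 to 494 and 51 to 172 reads per tumor. With 3 tumors per genotype, small differences were not detectable, and an unadjusted 95% interval above 0 was not enough for a call. Ccnd2, Cdkn2a and Cdkn2c had such intervals, with log2 fold changes of 1.78, 2.07 and 1.04. Their limma p adjusted over 13873 genes was 0.587, 0.889 and 0.810.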
